A study of Rattus norvegicus with 12 samples.

Results

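The miR-183 cluster is a group of microRNA genes whose mature products miR-183-5p, miR-96-5p and miR-182 are cut from one shared transcript. Its 3 members, listed as rno-miR-183-5p, rno-miR-96-5p and rno-miR-182 and written here without the species prefix, were taken by name from a table of 752 mature rat microRNAs measured by small RNA sequencing of serum. The samples were sera of male Sprague-Dawley rats, 7 weeks old and without any genetic change, which received single oral doses. The caffeine group (CAF) received caffeine at 180 mg/kg, the dextromethorphan group (DEX) received dextromethorphan hydrobromide monohydrate at 200 mg/kg, and the combination group (CAF+DEX) received both at those doses. The control group received the vehicle, sterile distilled water. In the combination the rats received dextromethorphan 1 h later than caffeine, and bleeding took place after a further 1 h. The design names 5 rats per group, and 12 libraries, 3 per group, were analysed here. They are named as the table names them: CAF3, CAF4 and CAF5, DEX1, DEX2 and DEX3, CAFDEX2, CAFDEX3 and CAFDEX6, and ctrl1, ctrl3 and ctrl5. Caffeine is an adenosine receptor antagonist, and dextromethorphan is a cough suppressant that blocks NMDA receptors.

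A microRNA guides the Argonaute protein to messenger RNAs whose sequence pairs with its seed, bases 2 to 8 from the 5′ end, and lowers their translation and stability. The miR-183 cluster is best known from sensory cells: hair cells of the inner ear, photoreceptors of the retina and sensory neurons express it strongly, and changes in the seed of miR-96 cause hearing loss in humans and mice. The cluster is also expressed in epithelia, including those of the gut, and in activated lymphocytes. Serum holds no cells. Its microRNAs come from many tissues, bound to proteins or carried in vesicles, and a higher level cannot be told apart into more releasing cells and more release per cell.

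The mature sequences are shown first because their seeds define which messages each member can pair with. They are RefSeq's, on the rat build GRCr8, from which all 3 members could be matched. They are written 5′ to 3′ with the seed in capitals.
miR-183-5p: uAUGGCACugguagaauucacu
miR-96-5p: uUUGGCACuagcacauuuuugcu
miR-182: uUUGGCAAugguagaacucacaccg
Counted from 1 at the 5′ end, with the base of miR-96-5p first, miR-182 differed from miR-96-5p in the first 8 bases by C8A, and miR-183-5p differed from it by U2A. The 3 seeds are therefore distinct. Bases 2 to 7 were shared by miR-96-5p and miR-182, and no other mature sequence among the 693 in the RefSeq table had the same bases 2 to 8 as a member. Over their whole length miR-183-5p and miR-182 resembled each other: 18 of 22 positions were identical without gaps, against 13 of 22 between miR-183-5p and miR-96-5p and 12 of 23 between miR-182 and miR-96-5p.

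All 3 members lie on the minus strand of chromosome 4. In the coordinates of the deposited table, whose build the submitters' processing notes give as rn6, miR-183-5p spans 57463631 to 57463652, miR-96-5p spans 57463426 to 57463448 and miR-182 spans 57459776 to 57459800, a stretch of 3877 bases in all. On GRCr8 the hairpins of Mir183 and Mir96 are separated by 97 bases, and those of Mir96 and Mir182 by 3533 bases. In the RefSeq annotation no protein-coding gene overlaps the stretch, and its nearest protein-coding neighbours are Nrf1 and Ube2h. The hairpins follow as annotated, with the mature member in capitals.
Mir183: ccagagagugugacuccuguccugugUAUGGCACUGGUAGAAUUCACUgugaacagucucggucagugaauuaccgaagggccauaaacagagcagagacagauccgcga
Mir96: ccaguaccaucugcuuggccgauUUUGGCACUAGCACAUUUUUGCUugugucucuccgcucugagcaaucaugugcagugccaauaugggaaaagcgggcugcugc
Mir182: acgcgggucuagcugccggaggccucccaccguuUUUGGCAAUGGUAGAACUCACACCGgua
Mir182 is annotated at 62 bases with miR-182 at bases 35 to 59, so its display does not tell which arm miR-182 is. No miR-182-3p was listed. The other arms of Mir183 and Mir96 were almost without reads. Over all 12 libraries miR-183-5p had 3641 reads and miR-183-3p had 2, 1 in CAF4 and 1 in ctrl3. For the Mir96 hairpin the 5p arm had 12 reads and the 3p arm was at 0 in every library. The table also lists miR-3553, annotated on the plus strand opposite miR-183-5p, at 0 in all 12 libraries; it was looked up after the members' values were seen.

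Values are FPKM, reads assigned to a microRNA scaled to its length in kilobases and to 1000000 reads assigned to microRNAs, as the authors deposited them. The value of 1 read could be recovered from the steps between low FPKM, which gave each library's total. Totals were 4.04e+05 to 8.96e+05 reads after dextromethorphan, 1.50e+06 to 1.84e+06 after caffeine, 7.58e+05 to 1.16e+06 after both drugs and 1.30e+06 to 2.63e+06 in control. DEX2 and DEX3 were the shallowest of the 12 libraries. They also had the highest red-cell index, the log2 ratio of miR-451-5p, abundant in red cells, to miR-23a-3p, at -5.13 and -5.26. The index ranged from -7.11 to -6.40 after caffeine, from -6.47 to -5.13 after dextromethorphan, from -6.44 to -5.67 after both drugs and from -7.83 to -7.11 in control. Comparisons that involve dextromethorphan alone are therefore given with and without DEX2 and DEX3.

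Of the 3 members, miR-183-5p and miR-182 were moderately abundant in serum and were read in all 12 libraries, whereas miR-96-5p was close to the limit of detection. By mean FPKM miR-183-5p ranked 100 and miR-182 ranked 107 among 549 microRNAs above 0, and miR-96-5p ranked 383. Recovered reads per library were 179 to 523 for miR-183-5p, 184 to 548.5 for miR-182 and 0 to 3 for miR-96-5p. The counts of miR-182 were not whole in 2 libraries, at 548.5 in CAF5 and 233.33 in DEX2. How these fractions arose was not tested. Counting error was small beside the spread between libraries for both abundant members: at the lowest counts it was 0.11 log2 units, while limma's estimate of the spread within groups was 0.45 for miR-183-5p and 0.48 for miR-182. Testing required a mean of 80 FPKM or more and detection in 3 or more libraries. That left 366 microRNAs, with 2 of the 3 members; miR-96-5p, with a mean of 58.9 FPKM, was not among them.

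**Figure D1:**
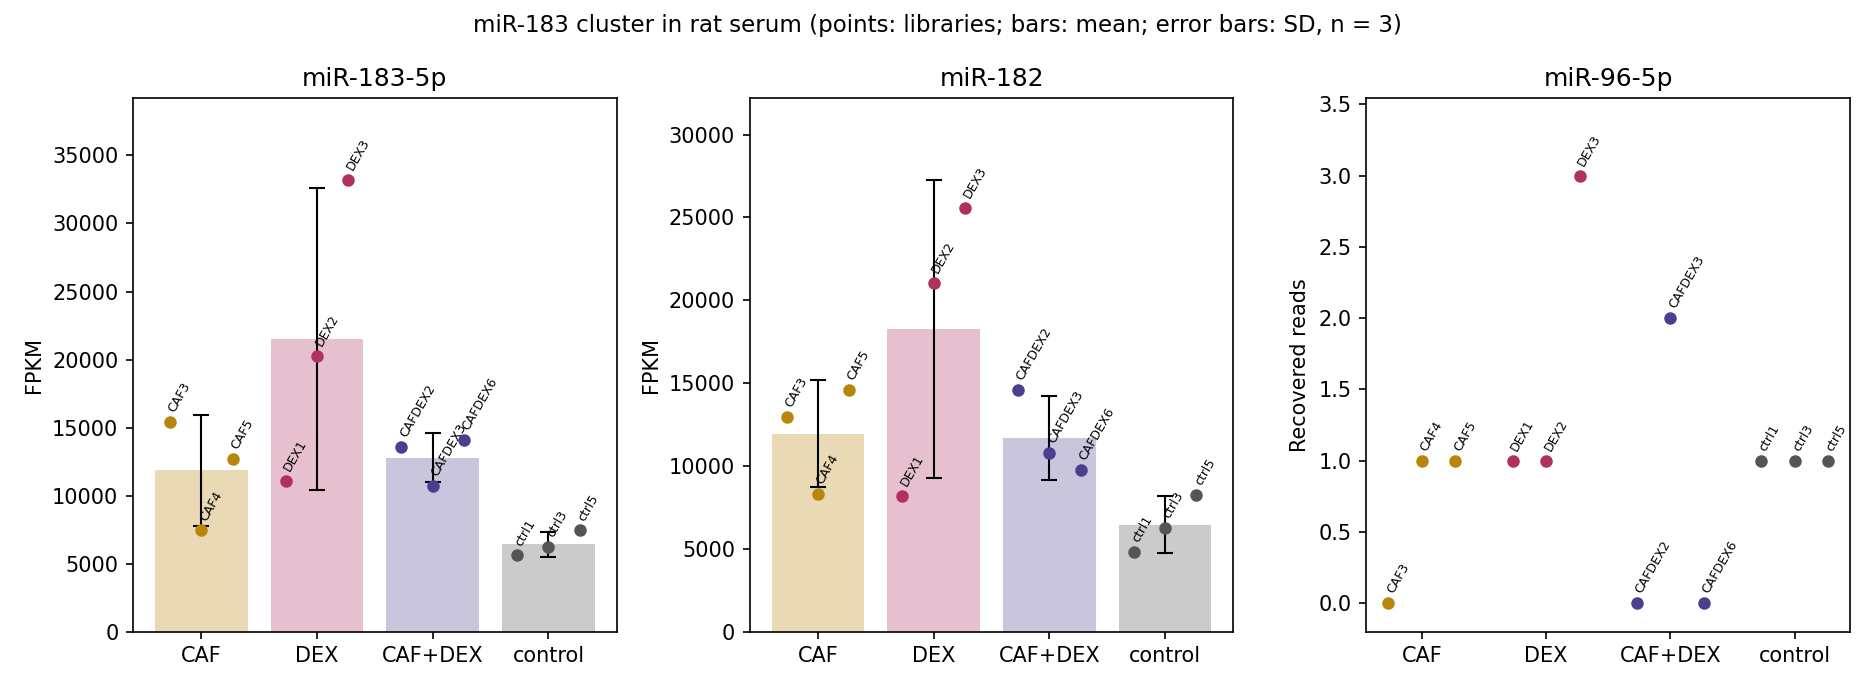
Level of each member by library in the 4 groups, in FPKM for miR-183-5p and miR-182 and in recovered reads for miR-96-5p; points are libraries, bars are means and error bars SD (n = 3). DEX2 and DEX3 lie highest for both abundant members, and miR-96-5p has at most 3 reads in any library.

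After dextromethorphan both tested members were higher than in control. miR-183-5p had 11113, 20290.2 and 33198 FPKM in DEX1, DEX2 and DEX3, against 5616, 6215 and 7455 FPKM in ctrl1, ctrl3 and ctrl5. All 3 dextromethorphan libraries lay above all 3 controls, as they did for 26% of the 366 microRNAs tested. miR-182 had 8216, 21041 and 25550.1 FPKM in DEX1, DEX2 and DEX3, against 4847, 6292 and 8277 FPKM in ctrl1, ctrl3 and ctrl5. Here the groups overlapped, because DEX1 lay just below ctrl5.

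The rise of miR-183-5p was 3.05-fold (95% interval 1.77 to 5.25), or 1.61 ± 0.37 log2 units (SE, 3 libraries per group), with a limma adjusted p of 0.0141. That of miR-182 was 2.59-fold (1.46 to 4.58), or 1.37 ± 0.39 log2 units, with a limma adjusted p of 0.0352. Of all tested microRNAs 11.5% rose in this comparison, and their median log2 fold change was 0.47. A pseudocount of 40 FPKM was added before taking logs, so all fold changes refer to FPKM + 40.

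The size of the rise rested largely on DEX2 and DEX3. Without them the log2 fold change against control was 0.80 for miR-183-5p (limma adjusted p = 0.257) and 0.38 for miR-182 (0.639), with DEX1 as a lone library assumed to vary like the other groups. The call of miR-183-5p was kept without DEX1 (2.02, limma adjusted p = 0.000878) and without DEX2 (1.58, 0.037). It was lost without DEX3 (1.23, limma adjusted p = 0.0754), without ctrl1 (1.52, 0.0603) or without ctrl3 (1.59, 0.052). Over all alternatives its adjusted p ran from 0.000878 to 0.941. The call of miR-182 was lost without DEX2 (1.19, limma adjusted p = 0.0945), DEX3 (1.05, 0.125), ctrl1 (1.18, 0.128) or ctrl3 (1.37, 0.123), and its adjusted p ran from 0.00114 to 0.984. It was lost also when the FPKM were rescaled by the median of ratios (0.96, limma adjusted p = 0.0984); miR-183-5p still passed there (limma adjusted p = 0.0357).

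Library totals moved with these values. In recovered reads the dextromethorphan and control libraries overlapped, with 219, 198 and 295 reads of miR-183-5p in DEX1, DEX2 and DEX3, against 260, 359 and 214 in ctrl1, ctrl3 and ctrl5. For miR-182 there were 184, 233.33 and 258 reads in DEX1, DEX2 and DEX3, against 255, 413 and 270 in ctrl1, ctrl3 and ctrl5. Together the 3 dextromethorphan libraries gave 408 reads of miR-183-5p in 1000000 assigned reads (RPM; 95% exact Poisson interval 379 to 440.0), against 138 RPM in control (129 to 148). For miR-182 the pooled values were 387 RPM (359 to 418) after dextromethorphan and 155 RPM in control (146 to 166). These intervals cover counting error only. Recovered reads are not scaled to the library total, so their overlap does not compare the share of reads. That share, in RPM, was higher after dextromethorphan for both members.

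Over the 12 libraries the log2(FPKM + 40) of miR-183-5p and the log2 library total had a Pearson r of -0.83 (Spearman -0.71), and for miR-182 r was -0.80 (Spearman -0.68). With the red-cell index r was 0.80 for miR-183-5p and 0.83 for miR-182. These are descriptions over 12 libraries in 4 groups that differ in total and in index. FPKM are reads divided by that same total, so their correlation with it is not independent of the scaling. The r with the total was worked out for these members only. With the library total as a covariate, an alternative chosen after the values were seen, the log2 fold change after dextromethorphan was 0.31 ± 0.64 for miR-183-5p and -0.36 ± 0.60 for miR-182 (SE). With the red-cell index as a covariate it was 0.84 ± 0.71 for miR-183-5p and -0.08 ± 0.65 for miR-182. The dextromethorphan libraries did not overlap the controls in total or in index, and neither did the combination libraries. These fits therefore cannot tell depth or the index apart from treatment. The index also contains miR-451-5p, which was itself called higher after dextromethorphan. The part of depth and of the red-cell index in the result was not tested.

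**Figure D2:**
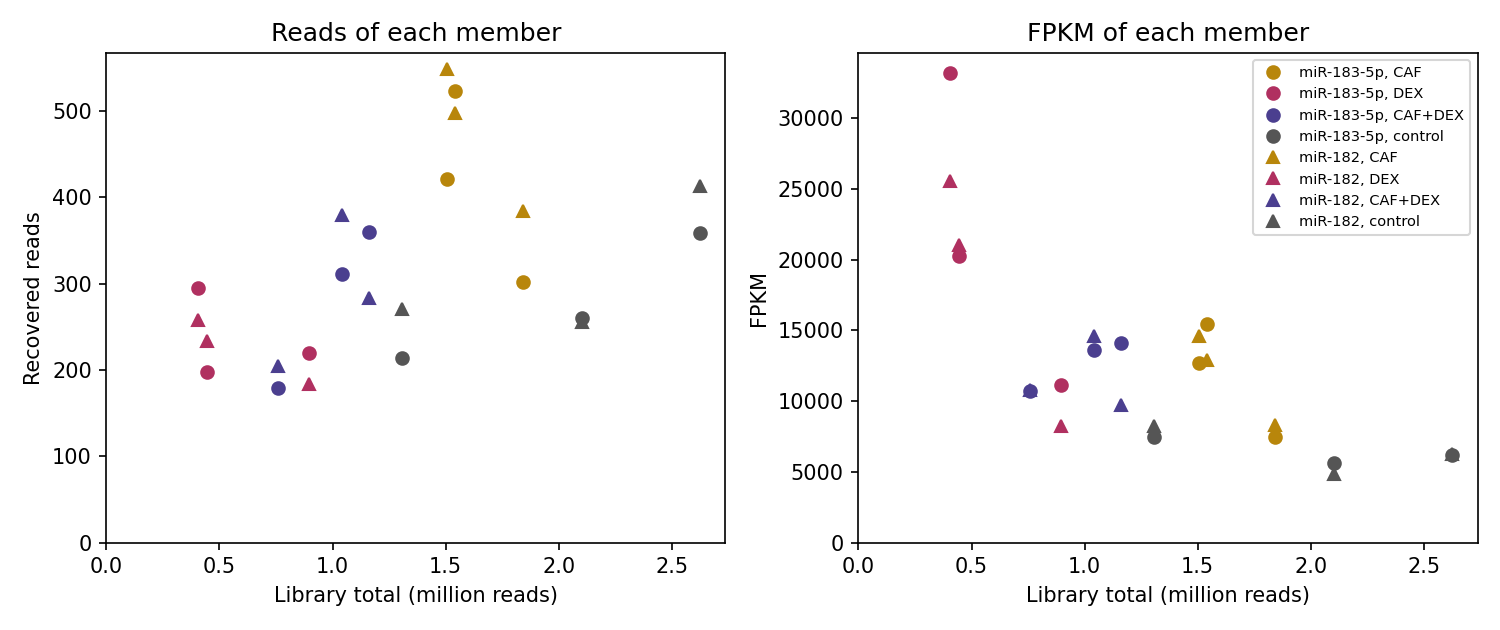
Recovered reads (left) and FPKM (right) of miR-183-5p (circles) and miR-182 (triangles) against the library total on a linear axis, 1 point per library, coloured by group. The highest FPKM lie in the smallest libraries, DEX2 and DEX3, whose recovered reads are within the range of the other libraries.

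The red-cell list was followed because red cells release microRNAs into serum. Of 5 listed names 4 were in the table and tested. After dextromethorphan rises were called for miR-451-5p and miR-144-5p, while miR-144-3p had a log2 fold change of 1.90 (limma adjusted p = 0.0818) and miR-16-5p one of 0.23 (0.412). That is 2 of 4, beside the 11.5% of all tested microRNAs that rose. Without DEX2 and DEX3 the median log2 fold change of the 4 was 0.35, beside 0.30 for all tested microRNAs. Leaving aside miR-16-5p, which is abundant in many cells, the summed level was 3641 to 5554 FPKM after caffeine, 6349 to 13269 FPKM after dextromethorphan, 4055 to 6645 FPKM after both drugs and 2515 to 3306 FPKM in control. No member of the list was at 0 in any library. The part of red-cell RNA in the levels of miR-183-5p and miR-182 was examined only through the index above.

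**Figure D3:**
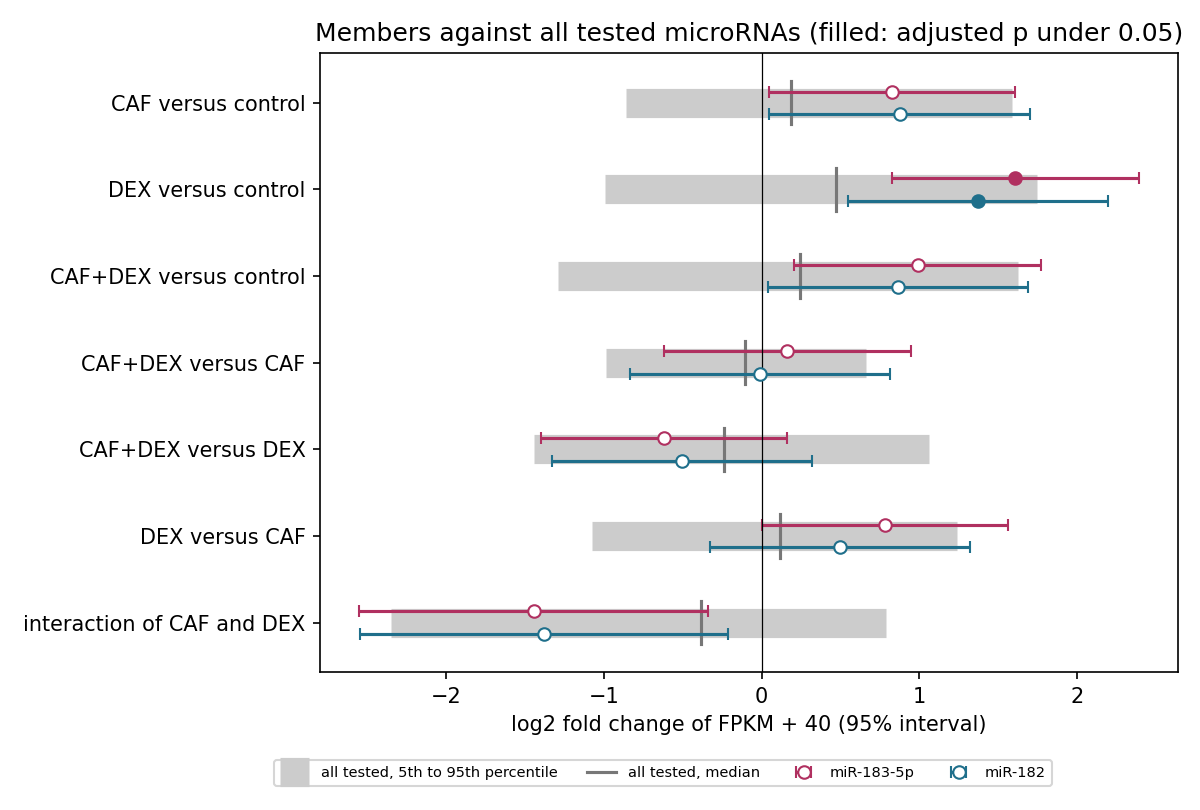
Log2 fold changes of miR-183-5p and miR-182 on the FPKM + 40 scale with limma's 95% intervals in each comparison and in the interaction, filled where the adjusted p is under 0.05. Grey bands span the 5th to 95th percentile of the 366 microRNAs tested and grey ticks mark their median; both members are filled in DEX versus control alone.

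After caffeine both members had higher means than in control, and neither passed the test. miR-183-5p had 15446, 7449 and 12716 FPKM in CAF3, CAF4 and CAF5, against 5616, 6215 and 7455 FPKM in ctrl1, ctrl3 and ctrl5. CAF4 fell within the range of the controls, while CAF3 and CAF5 lay above it. miR-182 had 12943, 8335 and 14578 FPKM in CAF3, CAF4 and CAF5, against 4847, 6292 and 8277 FPKM in ctrl1, ctrl3 and ctrl5. CAF4 was again the lowest, yet all 3 caffeine libraries lay above the controls, which held for 26% of tested microRNAs. The log2 fold change was 0.83 ± 0.37 for miR-183-5p (SE, n = 3 per group, limma adjusted p = 0.179) and 0.88 ± 0.39 for miR-182 (0.179), with 95% intervals of 1.03-fold to 3.05-fold and 1.04-fold to 3.25-fold. Of all tested microRNAs 6.83% rose after caffeine and the median log2 fold change was 0.19. With the library total as a covariate the log2 fold change was 0.65 for miR-183-5p and 0.64 for miR-182, and with the red-cell index it was 0.50 for miR-183-5p and 0.27 for miR-182, again not passing.

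After both drugs the members again lay above control without passing. miR-183-5p had 13598, 10729.9 and 14098 FPKM in CAFDEX2, CAFDEX3 and CAFDEX6, against 5616, 6215 and 7455 FPKM in ctrl1, ctrl3 and ctrl5. miR-182 had 14583, 10814 and 9753 FPKM in CAFDEX2, CAFDEX3 and CAFDEX6, against 4847, 6292 and 8277 FPKM in ctrl1, ctrl3 and ctrl5. For both the combination libraries did not overlap the controls, which held in this direction for 18% of tested microRNAs. The log2 fold change was 0.99 ± 0.37 for miR-183-5p (SE, n = 3 per group, limma adjusted p = 0.0925) and 0.86 ± 0.39 for miR-182 (0.154), that is 1.99-fold (95% interval 1.15 to 3.41) and 1.82-fold (1.03 to 3.23). In this comparison 6.56% of tested microRNAs rose, with a median log2 fold change of 0.24. miR-183-5p passed without DEX1 (limma adjusted p = 0.0441), without DEX2 and DEX3 (0.0364) and in a fit of the 2 groups alone (0.037), over a range of 0.0364 to 0.898; its fold change was the same in all of these, which alter the estimate of spread. With the library total as a covariate the log2 fold change was 0.28 for miR-183-5p and -0.077 for miR-182, and with the red-cell index it was 0.37 for miR-183-5p and -0.31 for miR-182, none passing.

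The order of the group means was DEX, CAF+DEX, CAF and control for miR-183-5p, at 21534 ± 11095 FPKM after dextromethorphan, 12809 ± 1817.5 after both drugs, 11870.4 ± 4065 after caffeine and 6429 ± 938 in control (SD, n = 3). For miR-182 it was DEX, CAF, CAF+DEX and control, at 18269 ± 8993 FPKM after dextromethorphan, 11952 ± 3237 after caffeine, 11716 ± 2538 after both drugs and 6472 ± 1722 in control (SD, n = 3). No pair of neighbours in either order differed by limma's test. A limma F test for any difference among the 4 groups passed for miR-183-5p (adjusted p = 0.0445) and not for miR-182 (0.0982), with 11.5% of tested microRNAs passing.

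Neither member differed by limma's test between the treated groups. Both drugs against caffeine, where 0% of tested microRNAs passed by limma or by voom and 22 had an unadjusted p under 0.05, gave a log2 fold change of 0.16 (95% interval -0.62 to 0.95) for miR-183-5p and -0.01 (-0.84 to 0.81) for miR-182. Both drugs against dextromethorphan gave -0.62 (-1.40 to 0.16) for miR-183-5p and -0.51 (-1.33 to 0.32) for miR-182, where 3.28% of tested microRNAs fell. Dextromethorphan against caffeine gave 0.78 (0.00 to 1.57) for miR-183-5p and 0.50 (-0.33 to 1.32) for miR-182, where 2.46% rose. Limma's adjusted p was 0.331 or more in each of these, and the intervals that involve dextromethorphan alone reach beyond 1 log2 unit. Without DEX1 the rise of miR-183-5p over caffeine was 1.19 and passed (limma adjusted p = 0.0441; 0.0441 to 0.968 over the alternatives). Without DEX2 and DEX3, and so with DEX1 alone, dextromethorphan against caffeine gave -0.031 for miR-183-5p and -0.50 for miR-182, and with the library total as a covariate it gave -0.34 for miR-183-5p and -1.001 for miR-182, none of them passing. Both drugs against dextromethorphan gave 0.19 for miR-183-5p and 0.49 for miR-182 without DEX2 and DEX3, the opposite sign to that with all libraries, and neither passed.

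The interaction asks whether the level after both drugs departs from the sum of the single-drug changes. It was -1.45 ± 0.52 log2 units for miR-183-5p (SE, n = 3 per group, limma adjusted p = 0.122) and -1.38 ± 0.55 for miR-182 (0.172), below the sum in both and not passing. Of all tested microRNAs 4.64% passed, all below the sum, and the median was -0.39. Without DEX1 the interaction passed for both, at -1.85 for miR-183-5p (limma adjusted p = 0.0215; 0.0215 to 0.705 over the alternatives) and -1.88 for miR-182 (0.015; 0.015 to 0.833). Without DEX2 and DEX3 it was -0.63 for miR-183-5p (limma adjusted p = 0.509) and -0.39 for miR-182 (0.742), and neither passed. With the library total as a covariate it was -0.67 for miR-183-5p and -0.35 for miR-182, and with the red-cell index it was -0.97 for miR-183-5p and -0.49 for miR-182, none of them passing. The comparisons with control share their control libraries.

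miR-183-5p and miR-182 kept close to each other in level. The ratio of miR-183-5p to miR-182 in FPKM ran from 0.87 in CAF5 to 1.45 in CAFDEX6, while the level of miR-183-5p itself spanned 5.91-fold over the libraries and that of miR-182 spanned 5.27-fold. The ratio averaged 0.986 ± 0.18 after caffeine, 1.21 ± 0.21 after dextromethorphan, 1.12 ± 0.281 after both drugs and 1.02 ± 0.131 in control (SD, n = 3), and the 4 groups overlapped. miR-96-5p made up at most 0.547% of the summed FPKM of the 3 members, in DEX3. Co-transcribed members thus stood at unequal FPKM in these libraries, miR-96-5p far below the others. How evenly the libraries captured each sequence was not tested.

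miR-96-5p, the member tied to hearing loss, was read too rarely for a test. It had 0, 1 and 1 reads in CAF3, CAF4 and CAF5, 1, 1 and 3 reads in DEX1, DEX2 and DEX3, 0, 2 and 0 reads in CAFDEX2, CAFDEX3 and CAFDEX6, and 1 read in each control. In FPKM DEX3 stood highest, at 323, and ctrl3 lowest among those above 0, at 16.6. A count of 0 was taken to allow up to 3 reads, that is 84.8 FPKM in CAF3, 125 in CAFDEX2 and 112 in CAFDEX6. That limit is a fixed setting, and the 95% exact Poisson upper limit for a count of 0 is 3.69 reads. Pooled by group there were 0.409 RPM after caffeine (95% exact Poisson interval 0.0496 to 1.48), 2.87 after dextromethorphan (0.931 to 6.69), 0.676 after both drugs (0.0819 to 2.44) and 0.497 in control (0.103 to 1.45). The intervals of all groups overlap, which is not a test of a difference, and with 0 to 3 reads per library none was judged here. All 3 dextromethorphan libraries lay above the controls in FPKM, but for DEX1 and DEX2 this is 1 read in a small library.

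Over the 12 libraries each abundant member was most like the other by Pearson correlation. Spearman correlation was worked out only for the 5 microRNAs nearest to each member by Pearson. Among those, miR-183-5p was not the nearest to miR-182. By Pearson correlation of log2(FPKM + 40), miR-182 was the closest of 365 tested microRNAs to miR-183-5p, and miR-183-5p the closest to miR-182, at r = 0.94 (Spearman 0.87), where the median r over the 365 was 0.20. Without DEX2 and DEX3 r was 0.87 over the 10 libraries left. After miR-182, the microRNAs most like miR-183-5p were miR-192-3p (r = 0.90, with 4 to 18 reads per library), miR-141-3p (0.89), miR-140-5p (0.86) and miR-200a-3p (0.86). Those most like miR-182 after miR-183-5p were miR-455-3p (0.93), miR-140-5p (0.91), miR-139-3p (0.89) and miR-140-3p (0.89). By Spearman correlation each of these stood closer to miR-182, at 0.930, 0.916, 0.881 and 0.874 in that order, than miR-183-5p at 0.867. miR-141-3p and miR-200a-3p belong to the epithelial miR-200 family; miR-140 is known from cartilage. The libraries share totals and group structure, and these values describe likeness only.

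**Figure D4:**
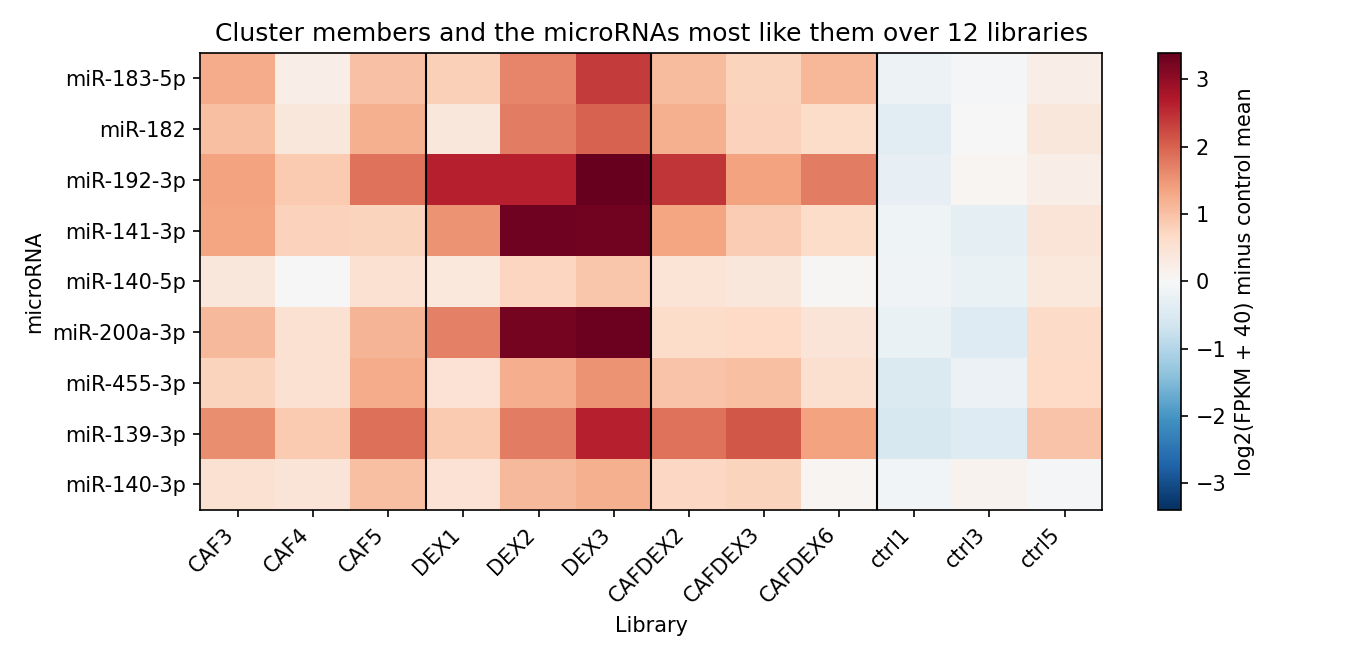
Levels of miR-183-5p, miR-182 and the microRNAs most like them by Pearson correlation, as log2(FPKM + 40) minus the control mean, by library; vertical lines separate CAF, DEX, CAF+DEX and control. The miR-200 family members are highest in DEX2 and DEX3, while miR-140-5p varies over a narrower range.

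Set beside a list of 9 epithelial microRNAs, the miR-200 family with miR-203, miR-205 and miR-375, the members' change after dextromethorphan was in the same direction. Of the 9, 8 rose and none fell against control, beside 11.5% of all tested microRNAs rising, with a median log2 fold change of 2.24, beside 1.61 for miR-183-5p and 1.37 for miR-182; miR-205 had 1.25 (limma adjusted p = 0.0876). The nearest values in the list were miR-203a-3p at 1.63 and miR-203b-3p at 1.40. After caffeine 1 of the 9 rose against control, beside 6.83% of all tested microRNAs. Their median was then 0.95, beside 0.83 for miR-183-5p and 0.88 for miR-182. After both drugs none of the 9 passed against control, where 6.56% of all tested microRNAs rose. The median was 0.58, beside 0.99 for miR-183-5p and 0.86 for miR-182. When both drugs were compared with dextromethorphan, 5 of the 9 fell, beside 3.28% of all tested microRNAs, with a median of -1.76, beside -0.62 for miR-183-5p and -0.51 for miR-182. The list also stood highest in DEX2 and DEX3: its summed level was 120624, 306988 and 315741 FPKM in DEX1, DEX2 and DEX3, against 77078, 41246 and 61562 FPKM in ctrl1, ctrl3 and ctrl5. Without DEX2 and DEX3, a setting added for the lists after the values were seen, 2 of the 9 passed against control, miR-200b-3p and miR-429, where 4.92% of all tested microRNAs rose. The median log2 fold change of the list was then 1.70, beside 0.80 for miR-183-5p and 0.38 for miR-182. None of the 9 then differed between both drugs and dextromethorphan, where 0% of all tested microRNAs passed, and the median was -0.70. Whether the cluster differs from the list was not tested. Of 6 neural and retinal microRNAs 4 were tested, namely miR-128-3p, miR-204-5p, miR-7a-5p and miR-9a-5p. The others, miR-124-3p and miR-211-5p, did not meet the filter for testing. None of the 4 passed after dextromethorphan. Their median log2 fold change was 1.01, from -0.74 for miR-128-3p to 1.38 for miR-204-5p. Without DEX2 and DEX3 miR-204-5p passed, at 3.22 (limma adjusted p = 0.0202), and the median of the 4 was 0.56. Of 5 leukocyte and platelet microRNAs none passed after dextromethorphan, with a median of 0.89; miR-223-3p had -0.66 and miR-142-5p had -0.20, and the other 3 were above 0. Without DEX2 and DEX3 the median of the 5 was 0.071, beside 0.30 for all tested microRNAs.

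**Figure D5:**
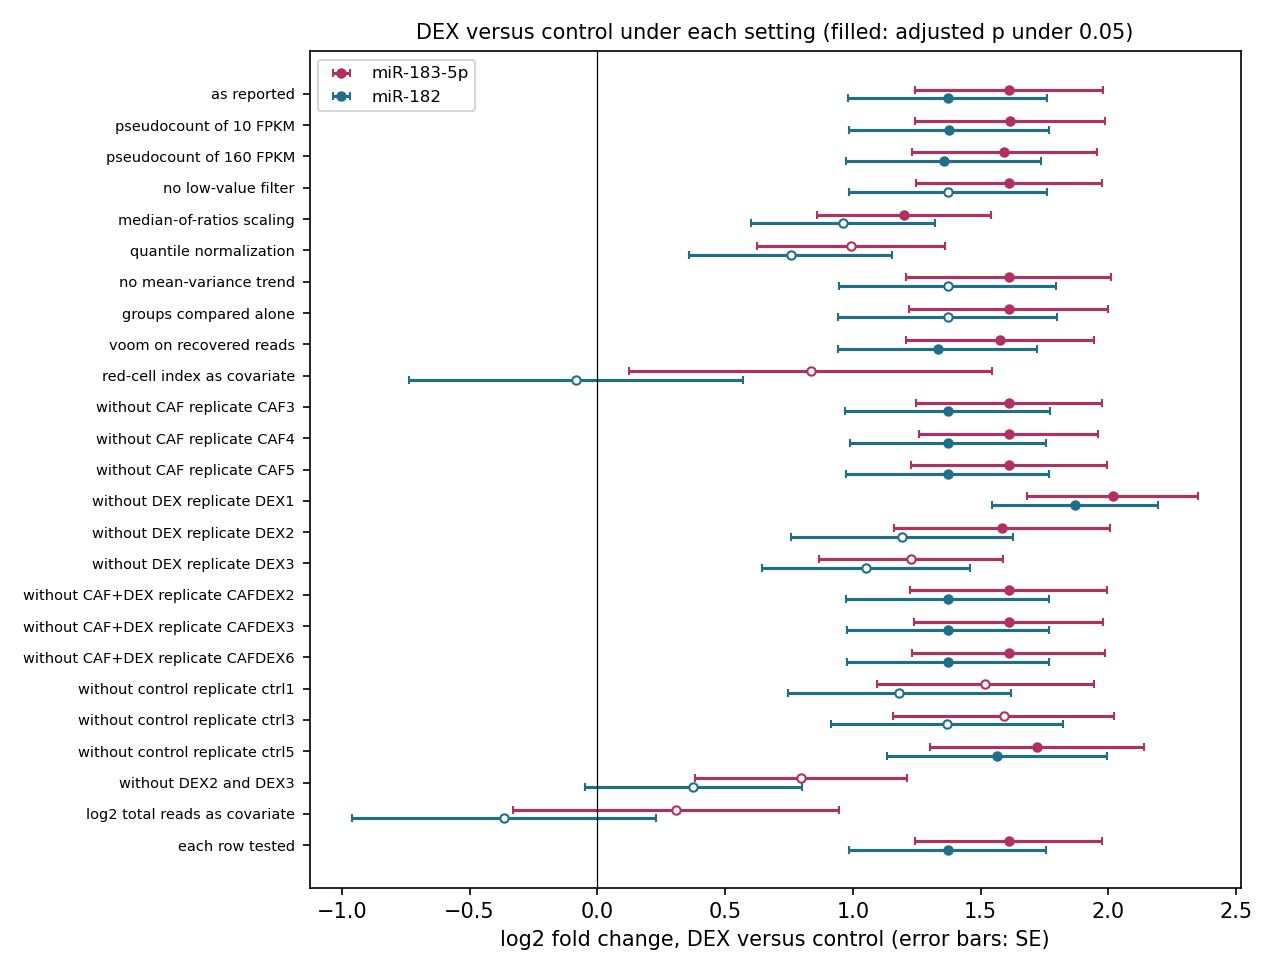
Log2 fold change of miR-183-5p and miR-182 in DEX versus control under each setting, with SE; filled points have an adjusted p under 0.05. The values for miR-183-5p run from 0.31 with the library total as a covariate to 2.02 without DEX1, and those for miR-182 from -0.36 to 1.87 under the same settings.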

How the data were processed

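Per the labels' protocols, 200 uL of serum was extracted (miRNeasy Micro Kit) and QIAseq miRNA libraries with unique molecular indices were prepared; whether reads were collapsed on the indices is not stated. The authors deposited FPKM per mature microRNA. The submitters' processing notes name build rn6 and, without roles, DESeq2 1.20.0, STAR 2.7.10a, Subread 2.0.1, featureCounts and cutadapt 3.7. FPKM times length summed to the same constant in each column, so values are relative to the reads assigned to listed microRNAs, and a rise of an abundant one lowers the others. All FPKM above 0 were multiples of 0.01 of 1 read within 0.0001 reads, and 65.4% to 75.0% were whole, which gave library totals.

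Column prefixes gave the group; column numbers did not match those of the titles. Rows of one name were summed (836 rows, 752 names). A limma 3.58.1 model (R 4.3.3) of log2(FPKM + 40) covered all 4 groups, with empirical Bayes moderation along a mean-variance trend (8 residual and 7.58 prior degrees of freedom), and tests were two-sided, adjusted by Benjamini-Hochberg over 366 microRNAs at 0.05; the code was checked on simulated reads. The labels do not tie each library to its own animal, and p-values then reflect spread among libraries, which may be technical. The members, lists, filter and pseudocount were chosen with earlier results of these data known. The text names the 3 members, the other arms of their hairpins, the 5 microRNAs most like each tested member, and list members. Tables were handled with pandas 2.3.3 and numpy 2.4.6 in Python 3.11.15, and plots drawn with matplotlib 3.10.9. Alternatives changed the pseudocount, filter, scaling, trend, libraries, covariates and model (voom on recovered reads).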

Additional observations from a re-analysis of the deposited data

How the results depend on the processing

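Values are log2 fold changes. In DEX versus control miR-183-5p no longer passed with quantile normalization (0.99), the red-cell index as covariate (0.84), without DEX2 and DEX3 (0.80) or with the library total as covariate (0.31), and was 1.23 to 2.02 with 1 library left out. miR-182 no longer passed when the low-value filter or the mean-variance trend was dropped or the groups were compared alone (1.37 each), with median-of-ratios scaling (0.96), quantile normalization (0.76) or without DEX2 and DEX3 (0.38). It was below 0 with the red-cell index (-0.085) or library total (-0.36) as covariate, and 1.05 to 1.87 with 1 library left out. In CAF+DEX versus control miR-183-5p passed with the groups alone and without DEX2 and DEX3 (0.99 each), and was 0.90 to 1.11 with 1 library left out; miR-182 turned with the red-cell index (-0.31) and the library total (-0.077). In CAF versus control neither member changed direction or passed under any alternative run.

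Between treated groups, where neither member passed with all libraries, signs turned as follows. In CAF+DEX versus CAF miR-183-5p was -0.14 with the red-cell index, -0.36 with the library total and -0.14 to 0.38 with 1 library left out, and miR-182 was 0.076 with median-of-ratios scaling, 0.16 with quantile normalization and -0.25 to 0.15 with 1 left out. In CAF+DEX versus DEX without DEX2 and DEX3, miR-183-5p was 0.19 and miR-182 was 0.49, and miR-182 was 0.29 with the library total. In DEX versus CAF miR-183-5p was -0.031 without DEX2 and DEX3, -0.34 with the library total and 0.40 to 1.19 with 1 left out; miR-182 was -0.35 with the red-cell index, -0.50 without DEX2 and DEX3 and -1.001 with the library total. The interaction ran from -1.85 to -1.07 for miR-183-5p and from -1.88 to -1.06 for miR-182 with 1 left out. The cause of these changes was not tested. The median of all tested microRNAs in DEX versus control was 0.47 as deposited, 0.11 after scaling by median of ratios and 0.032 after quantile normalization. Above that median miR-183-5p stood by 1.13, 1.09 and 0.96, and miR-182 by 0.90, 0.85 and 0.72.

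Counts of microRNAs passing ran from 4 to 65 over the alternatives in CAF versus control (29 as reported), 0 to 74 in DEX versus control (44), 0 to 60 in CAF+DEX versus control (40), 0 to 3 in CAF+DEX versus CAF (0, with 22 at an unadjusted p under 0.05), 0 to 24 in CAF+DEX versus DEX (13), 0 to 27 in DEX versus CAF (9) and 5 to 38 in the interaction (17). In the fit without the low-value filter miR-96-5p had a log2 fold change of 1.38 after dextromethorphan (limma adjusted p = 0.168), resting on 1 to 3 reads. No paired analysis was possible because the replicate numbers of the titles are not carried by the columns. The groups were dosed differently, with 5 rats per group in the design, and the labels name no pairing of rats between groups. A replicate number shared by titles of different groups therefore need not mark a pair.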
